A study of Homo sapiens with 6 samples.

Results

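The genes of cholesterol and fatty acid synthesis were followed in DLD1 human colorectal cancer cells with and without a mutation in the nuclear localization sequence of p85β. The 31 members were listed by name from the pathway, with earlier results of these data known, and no measured value entered the rule: 18 enzymes from acetyl-CoA to cholesterol, 6 genes of sterol sensing and sterol transfer, and 7 genes of fatty acid synthesis. All 31 were found among the 58884 genes of the count table, and all 31 passed the filter on low counts that left 16059 genes for testing. DLD1 is an established colon adenocarcinoma line that carries a helical domain mutation of PIK3CA, the catalytic subunit of PI3K, and the parental and mutant cells share that mutation. p85β, encoded by PIK3R2, is a regulatory subunit of PI3K. In the mutant cells, termed p85β KR-AA, K477A and R478A were knocked into PIK3R2 on both alleles by CRISPR/Cas9. RNA-seq was done on 3 libraries of parental cells and 3 of p85β KR-AA cells. The study derived 2 homozygous clones, and the labels do not say from which clone a KR-AA library came. The title of each KR-AA library gives K477A/R478A, whereas the source field of 1 library reads R479A and that of another reads R480A.

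Cells make cholesterol from acetyl-CoA through mevalonate, farnesyl diphosphate, squalene and lanosterol, and they make fatty acids from the same acetyl-CoA through malonyl-CoA. Both arms are known targets of the SREBP transcription factors, which SCAP carries from the endoplasmic reticulum to the Golgi when sterols are low and which INSIG proteins hold back when sterols are plentiful. PI3K signaling is known to raise SREBP activity through AKT and mTORC1, and rapidly dividing tumor cells are known to use both arms for membrane lipid.

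Estimated counts per library were between 20301932 and 20873475 in parental cells and between 20301396 and 26712816 in KR-AA cells. Between 18922 and 19639 genes had a count in parental libraries and between 23158 and 24315 in KR-AA libraries. The TMM factors, which edgeR computes to put libraries on one scale, were 0.677 to 0.777 in parental and 1.35 to 1.41 in KR-AA libraries, so the direction of small changes turned on the scaling. The median gene had a log2 fold change of 0.32 under TMM, and scaling libraries by their totals alone raised it by 0.92. PIK3R2 had between 12.3 and 34.8 CPM (TMM-scaled counts relative to library size) in parental libraries and between 4.55 and 16.6 in KR-AA libraries, with groups that overlapped, and gene counts do not show the bases that were knocked in. The summed CPM of the 18 colon epithelium markers was 57345 to 79380 in parental and 8891 to 10398 in KR-AA libraries, with 3 of the 16 tested markers called up, 8 called down and FABP1 at 0 counts in all libraries. The summed CPM of the 18 mesenchyme markers was 214 to 282 and 6475 to 7400.0, with 9 of 13 tested markers called up and 1 called down, while COL1A2, PDGFRA and TWIST1 had 0 counts in KR-AA libraries and PDGFRA also in parental ones. Blood markers summed to 5.31 to 7.21 and 4.32 to 5.57 CPM, hepatocyte markers to 44 to 48.8 and 85.4 to 99.0 CPM, and neuron markers to 521 to 609 and 349 to 369 CPM with 5 of 6 tested neuron markers called up. The fall of the neuron sum came from TUBB3, the tested neuron marker not called up, with a mean of 561 CPM in parental and 211 CPM in KR-AA libraries. NEFL, NEFM and GAP43 of neurons had 0 counts in every parental library and means of 132, 1.86 and 1.24 CPM in KR-AA libraries. Among the markers at 0 counts in both groups were MS4A1 of blood, DCX and ELAVL4 of neurons and TTR and APOC3 of hepatocytes. The part of these marker shifts in the values of the lipid genes was not tested, and in bulk RNA fewer cells of a type and less RNA per cell cannot be told apart.

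The lipid synthesis genes did not move as one block. HMGCS1, the enzyme at the entry to the mevalonate pathway, STARD4, a carrier of cholesterol between membranes, and SCD, the desaturase that makes oleate, were called up in KR-AA cells. ACAT2, MVK, PMVK, MVD, FDPS, TM7SF2 and EBP, all of them sterol enzymes, were called down. A call here is a fold change of at least 3 with an adjusted p under 0.01 in edgeR's quasi-likelihood test over all tested genes. Over all tested genes, 28.6% were called up and 17.6% down, 46.2% in either direction, which stands beside 3 and 7 of 31 members. By the adjusted p alone, whatever the fold, 13 members rose, 14 fell and 4 did not pass. Those that did not pass were HSD17B7, SREBF2, ACLY and FADS2. By the same criterion 41.6% of all tested genes rose and 32.7% fell, 74.3% in all. KR-AA libraries lay wholly above parental libraries for 13 members and wholly below for 14, and 4 members had overlapping groups, where 47.0% of all tested genes lay wholly above and 36.5% wholly below (83.5% in all). The members had a median log2 fold change of -0.07, against 0.32 for all tested genes.

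The direction of a member close to no change depended on the scaling. With library totals, 13 members were called up and 2, MVD and EBP, were called down, where 43.9% of all genes were called up and 6.06% down. LSS, ACLY, FASN and FADS2 had positive values with library totals (0.17, 0.66, 0.13 and 0.86 on the log2 scale) and negative values with TMM. The place of each member against the median gene cannot move with a scaling factor, and 13 members lay above the median gene and 18 below it under TMM, library totals, upper quartile scaling and DESeq2's size factors.

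**Figure D1:**
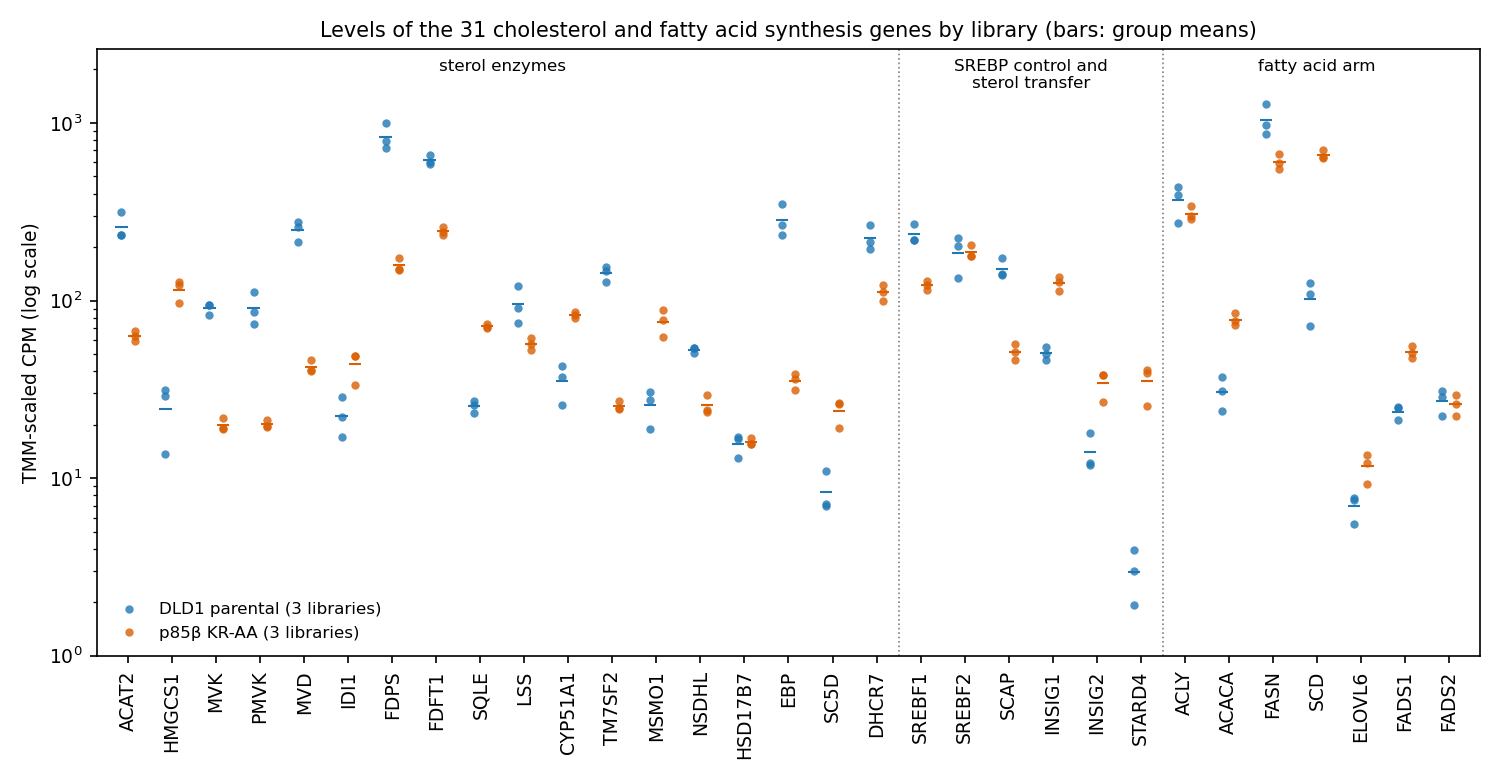
Level of each of the 31 members in TMM-scaled CPM on a log axis, with 1 point per library, blue for the 3 parental and orange for the 3 KR-AA libraries, and short bars for group means. The groups are apart for 27 members and overlap for HSD17B7, SREBF2, ACLY and FADS2, and the direction shown for LSS and FASN turned with scaling by library totals.

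Promoter sequence was read for the 27 members found in the RefSeq table of promoters (GRCh38.p14, 250 bases before to 50 bases after the start), which holds 27305 promoters. On both strands, the sterol regulatory element TCACCCCAC was in 1 member, SREBF2, and in 0.425% of all promoters. The looser form TCACNCCAC, which covers those letters, was likewise in SREBF2 alone among members and in 1.15% of all promoters. The palindrome TCACGTGA, an E-box that SREBP-1 is known to bind, was in INSIG1 alone and in 1.04% of all promoters. The CCAAT box, the site of NF-Y, which is known to act with SREBPs, was in 17 of 27 members (63.0%) and in 35.7% of all promoters. At least 2 CCAAT boxes were in 12 members and in 11.3% of all promoters. All 3 members called up had one, as did 5 of the 6 members called down with a sequence and 9 of the 18 that were not called. By the adjusted p alone, 6 of 12 members that rose and 8 of 11 that fell had one. A match of letters in a window is a description, not a bound site.

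The stretch of SREBF2 (chr22:41832957-41833018, plus strand, 148 to 87 bases before the start) is shown because it holds the element, which is in capitals with the CCAAT box on the minus strand (ATTGG). The stretches of HMGCS1 (chr5:43313493-43313582, minus strand), MSMO1 (chr4:165327469-165327654, plus), STARD4 (chr5:111512646-111512711, minus) and SCD (chr10:100346989-100347066, plus) come from members that rose, with capitals for CCAAT or ATTGG.
SREBF2: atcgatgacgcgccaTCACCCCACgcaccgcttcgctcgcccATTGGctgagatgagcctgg
HMGCS1: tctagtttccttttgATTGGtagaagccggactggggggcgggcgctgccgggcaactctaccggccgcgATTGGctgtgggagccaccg
MSMO1: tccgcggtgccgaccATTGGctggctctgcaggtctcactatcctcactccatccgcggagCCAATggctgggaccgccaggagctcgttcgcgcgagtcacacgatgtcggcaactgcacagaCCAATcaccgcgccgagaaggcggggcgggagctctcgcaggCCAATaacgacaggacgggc
STARD4: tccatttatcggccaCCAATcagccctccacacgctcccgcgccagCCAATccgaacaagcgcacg
SCD: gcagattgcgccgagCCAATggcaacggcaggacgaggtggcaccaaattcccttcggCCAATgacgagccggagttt

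For comparison, the stretches of FDPS (chr1:155308675-155308834, plus strand), MVD (chr16:88663157-88663265, minus) and EBP (chrX:48521602-48521797, plus) come from members that fell, with the same boxes in capitals.
FDPS: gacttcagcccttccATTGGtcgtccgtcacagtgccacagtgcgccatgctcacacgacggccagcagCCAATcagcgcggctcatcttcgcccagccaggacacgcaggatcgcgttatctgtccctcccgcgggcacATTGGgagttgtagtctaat
MVD: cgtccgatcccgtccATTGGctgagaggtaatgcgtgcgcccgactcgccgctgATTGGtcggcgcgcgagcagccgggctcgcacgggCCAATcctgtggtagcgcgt
EBP: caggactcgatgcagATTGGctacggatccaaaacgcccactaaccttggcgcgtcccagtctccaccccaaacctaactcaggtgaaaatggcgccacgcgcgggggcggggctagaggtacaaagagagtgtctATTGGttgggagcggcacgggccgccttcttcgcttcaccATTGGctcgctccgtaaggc
All 3 of these promoters held 3 CCAAT boxes, against 4 in MSMO1 and 2 in HMGCS1, STARD4 and SCD.

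Among the enzymes that lead to farnesyl diphosphate, HMGCS1 and IDI1 rose and the other 5 fell. HMGCS1 (ENSG00000112972, chr5:43287572-43313614 in GRCh37) joins acetyl-CoA to acetoacetyl-CoA, and it stood at 13.7, 31.3 and 28.9 CPM in parental libraries and at 123, 127 and 96.5 CPM in KR-AA libraries. The lowest KR-AA library was about 3-fold above the highest parental library, and the log2 fold change was 2.23 (SE 0.25, n = 3 per group), with an adjusted p of 3.23e-06 in edgeR's quasi-likelihood test. ACAT2 (ENSG00000120437, chr6:160183077-160200144), the cytosolic thiolase that makes acetoacetyl-CoA, stood at 233, 314 and 234 CPM in parental libraries and at 63.1, 59.2 and 67.1 in KR-AA libraries. Every KR-AA library was below every parental one, and ACAT2 fell by 2.04 on the log2 scale (SE 0.15). ACAT2 overlaps TCP1 on the other strand, a chaperonin subunit with a mean of 4459 counts in parental and 7163 in KR-AA libraries. The strand setting of the counting is not given in the sources used here, so reads of the shared stretch cannot be told apart.

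The kinases MVK and PMVK, which phosphorylate mevalonate in turn, fell by like amounts. MVK (ENSG00000110921, chr12:110011060-110035930) stood at 94.3, 94.1 and 83.2 CPM in parental and at 19.2, 18.9 and 21.8 CPM in KR-AA libraries. PMVK (ENSG00000163344, chr1:154897216-154909195) stood at 85.9, 112 and 73.6 and at 19.7, 19.4 and 21.2 CPM. The 2 enzymes had log2 fold changes of -2.18 (SE 0.14) and -2.17 (SE 0.17), and neither had overlapping groups. MVK shares a stretch with MMAB on the other strand, which had a mean of 1233 and 568 counts.

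MVD, the decarboxylase that makes isopentenyl diphosphate (ENSG00000167508, chr16:88718343-88729569), stood at 259, 276 and 214 CPM in parental and at 40.0, 40.6 and 46.1 CPM in KR-AA libraries. FDPS, the synthase of farnesyl diphosphate (ENSG00000160752, chr1:155278539-155290457), stood at 789, 995 and 723 and at 150.1, 149 and 174 CPM. Both fell more than 5-fold, MVD by 2.56 (SE 0.14) and FDPS by 2.41 (SE 0.15) on the log2 scale. IDI1, the isomerase that acts between them, went the other way. It stood at 16.9, 28.5 and 22.0 CPM in parental and at 48.7, 48.9 and 33.6 CPM in KR-AA libraries, a log2 fold change of 0.96 (SE 0.21) that passed the adjusted p in edgeR's quasi-likelihood test (8.91e-04) but not the 3-fold threshold.

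Between farnesyl diphosphate and lanosterol no enzyme was called. FDFT1, squalene synthase, fell from 606, 659 and 589 CPM to 244, 235 and 259.8 CPM (log2 fold change -1.33, SE 0.12). SQLE, squalene epoxidase and a slow step of the pathway, rose from 23.2, 25.7 and 27.3 to 70.5, 74.2 and 70.5 CPM (log2 fold change 1.50, SE 0.14). LSS, lanosterol synthase, had 121, 75.2 and 90.6 CPM and then 57.1, 52.3 and 61.9 CPM. Its log2 fold change of -0.74 (SE 0.17) passed the adjusted p with TMM and had the opposite sign with library totals (0.17). The 3 consecutive enzymes thus had unlike values, with groups that did not overlap for any of them.

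From lanosterol to cholesterol, TM7SF2 and EBP were called down and the enzymes that passed upward stayed under 3-fold. EBP, which moves the double bond of the sterol ring (ENSG00000147155, chrX:48380187-48387104), had the lowest log2 fold change of the 31 members. It stood at 265, 349.5 and 235 CPM in parental and at 36.3, 31.4 and 38.7 CPM in KR-AA libraries, 7.98-fold lower (log2 fold change -3.00, SE 0.17, adjusted p 1.01e-08 in edgeR's quasi-likelihood test). TM7SF2, a sterol reductase of the ring (ENSG00000149809, chr11:64879317-64883856), stood at 147, 155 and 127 and at 27.2, 24.5 and 24.9 CPM and fell by 2.49 (SE 0.14) on the log2 scale. TM7SF2 shares a stretch of the same strand with VPS51, a tethering protein of the Golgi, whose mean went from 11080 to 2706 counts, and EBP shares one with an unnamed gene of 112 and 34.1 mean counts. Reads of such shared stretches can be split between the genes of a pair in estimated counts.

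LBR, the nuclear envelope protein that carries the same reductase activity as TM7SF2, changed in the other direction. It stood at 8.57, 12 and 11.2 CPM in parental and at 46.6, 52.7 and 37.1 CPM in KR-AA libraries (log2 fold change 2.10, SE 0.19, called up). Per length, TM7SF2 exceeded LBR 24.8 to 37.4 times in parental libraries and 1.01 to 1.46 times in KR-AA libraries. A ratio within a library is free of the scaling factor but not of gene length and GC content, which is 63.0% for TM7SF2 and 41.8% for LBR. With offsets for both, the log2 change of this ratio went from -4.59 to -1.12, and LBR (0.38) was no longer called.

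CYP51A1, the lanosterol demethylase, rose from 25.9, 37.1 and 42.7 CPM to 79.6, 86.5 and 82.7 CPM (log2 fold change 1.23, SE 0.17). It shares a stretch with AKAP9 on the other strand, which had a mean of 7.33 and 384 counts. MSMO1, the methylsterol oxidase, rose from 19.0, 30.4 and 27.7 to 77.9, 88.4 and 62.2 CPM (1.57, SE 0.19), which is 2.97-fold and just under the threshold. SC5D, a late desaturase, rose from 7.11, 10.9 and 6.97 to 26.5, 26.1 and 19.1 CPM (1.52, SE 0.22). For all 3 of these the groups were apart, and KR-AA replicate 3 was the lowest KR-AA library for MSMO1 and SC5D. Without that library both passed 3-fold, and the number of sterol enzymes called up went from 1 to 3. Without parental replicate 2 it was also 3, and without parental replicate 3 it was 2. Over all tested genes, 4783 of 16458, 4594 of 16634 and 4635 of 16520 were called up in these fits, in that order. With all libraries it was 4597 of 16059.

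NSDHL, which acts with MSMO1 in removing methyl groups, fell from 54.2, 53.8 and 50.5 CPM to 23.7, 24.3 and 29.3 CPM (log2 fold change -1.04, SE 0.14). DHCR7, the last reductase of one branch, fell from 268, 194 and 212 to 111, 99.96 and 122 CPM (-1.02, SE 0.15). With library totals neither NSDHL (-0.11) nor DHCR7 (-0.09) passed the adjusted p. HSD17B7, the ketosteroid reductase between them, had 13.0, 17.0 and 16.7 CPM and then 15.5, 15.5 and 16.8 CPM. Its groups overlapped and its log2 fold change was 0.04 (SE 0.17), with the opposite sign under DESeq2 (-0.08). With library totals the value of HSD17B7 was 0.96 and passed the adjusted p. Its pseudogene HSD17B7P2 had 0.617 to 3.13 CPM over the 6 libraries, and HSD17B7 exceeded it per length at least 6.38 times in each. In all, 1 of the 18 sterol enzymes was called up and 7 were called down, beside 28.6% and 17.6% of all tested genes. By the adjusted p alone 6 rose, 11 fell and HSD17B7 did not pass, where 41.6% of all tested genes rose and 32.7% fell. The median log2 fold change of the 18 was -1.03.

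**Figure D2:**
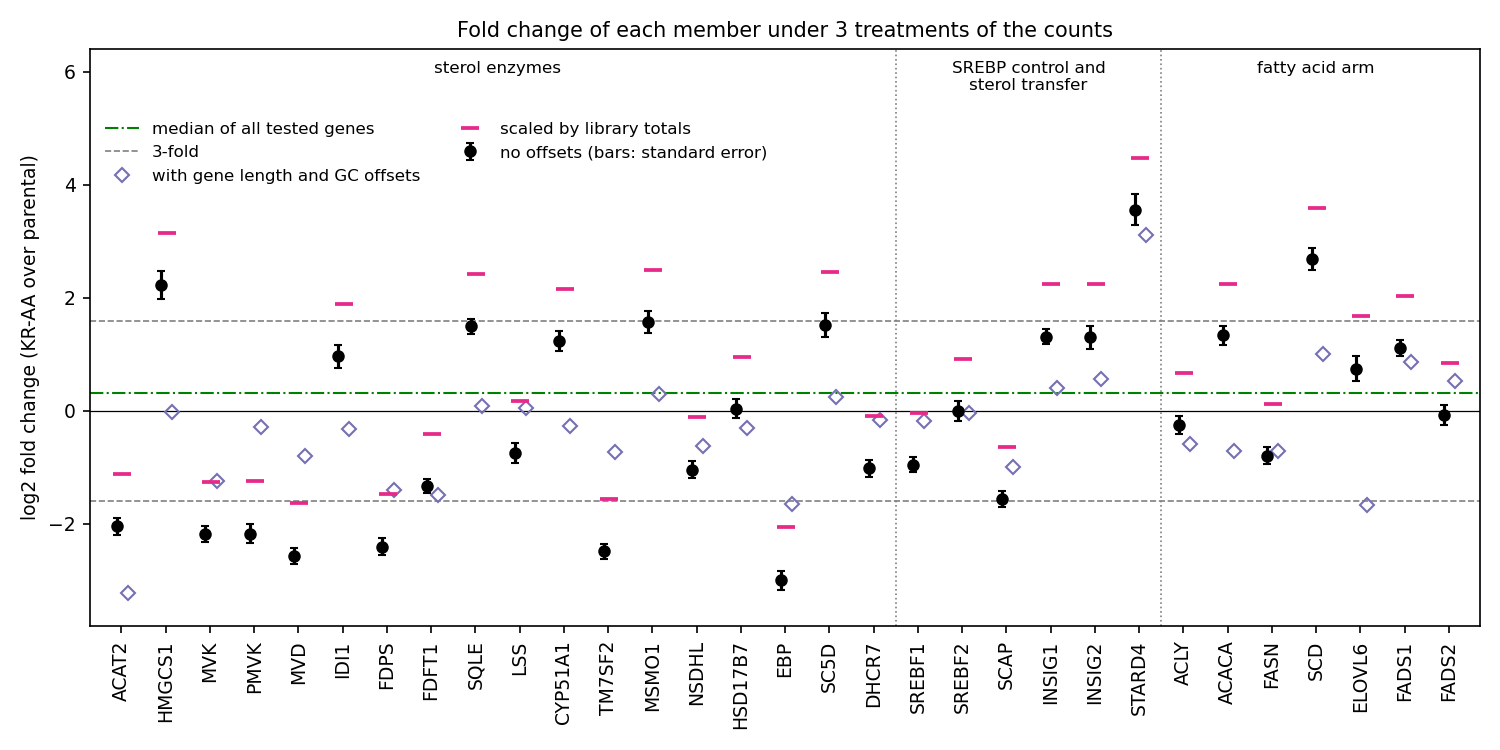
Log2 fold change (KR-AA over parental) of each member with no offsets (black, error bars are SE), with length and GC offsets (open diamonds) and with scaling by library totals (pink bars), over lines at 3-fold and at the median of all tested genes (0.32). The pink bars lie about 0.92 above the black points, which carries LSS, FASN, ACLY and FADS2 across 0, and with both offsets 23 of 31 members lie within 1 of 0.

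Among the genes of sterol sensing and transfer, with TMM, the SREBP genes and SCAP were lower or near their parental level and both INSIG genes were higher. SREBF1, which encodes the SREBP-1 factors of lipid synthesis, fell from 271, 220.1 and 219 CPM to 123, 114 and 129 CPM (log2 fold change -0.95, SE 0.13). With library totals its value was -0.03 and did not pass the adjusted p. SREBF1 shares a stretch with RAI1 on the other strand, which had a mean of 499 and 1721 counts. SREBF2, which encodes the SREBP-2 factor of the cholesterol arm, had 224, 133 and 202 CPM and then 179, 177 and 205 CPM. The SREBF2 groups overlapped, and its log2 fold change was 0.00 (SE 0.17) with TMM and -0.11 with DESeq2's size factors. With library totals the value of SREBF2 was 0.92 and passed the adjusted p. Per length, SREBF2 was 0.491 to 0.750 times SREBF1 in parental libraries and 1.18 to 1.28 times SREBF1 in KR-AA libraries, so the order of the 2 genes differed between the groups.

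SCAP, the escort of both SREBPs, fell from 174, 139 and 140.5 CPM to 51.0, 46.4 and 56.7 CPM (log2 fold change -1.56, SE 0.14), which is 2.94-fold. SCAP was past 3-fold under DESeq2 and without parental replicate 2, parental replicate 3 or KR-AA replicate 3, which takes the count of this group called down from 0 to 1. Over all tested genes, 3094, 2880, 2992 and 2969 were called down in these fits, in that order, against 2825 in the main fit. INSIG1 rose from 46.2, 49.8 and 55.1 to 127, 136 and 113 CPM (1.31, SE 0.13). INSIG2 rose from 12.2, 18 and 11.8 to 38.2, 38.2 and 27.0 CPM (1.30, SE 0.21). These retention factors kept overlapping ratios of INSIG1 to INSIG2 per length, 1.28 to 2.15 in parental and 1.54 to 1.95 in KR-AA libraries.

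STARD4 (ENSG00000164211, chr5:110831731-110848288) had the highest log2 fold change of the 31 members. It stood at 1.93, 2.99 and 3.95 CPM in parental libraries and at 38.9, 40.8 and 25.5 CPM in KR-AA libraries, all far above parental. The log2 fold change was 3.56 (SE 0.27), or 11.8-fold, with an adjusted p of 8.93e-08 in edgeR's quasi-likelihood test. The antisense gene STARD4-AS1 had 0 counts in every parental library and a mean of 48.7 counts in KR-AA libraries, few beside those of STARD4. One of these 6 genes, STARD4, was called up and none was called down, beside 28.6% and 17.6% of all tested genes.

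In the fatty acid arm, the desaturases SCD and FADS1 and the carboxylase ACACA rose while FASN fell, with no offsets for length and GC content. With both offsets ACACA (-0.70) and FASN (-0.71) were both negative, and SCD (1.01) and FADS1 (0.86) stayed positive. SCD (ENSG00000099194, chr10:102106990-102124583), which puts the first double bond into stearate, stood at 108, 72.3 and 126 CPM in parental and at 635, 642 and 703 CPM in KR-AA libraries. Each KR-AA library was at least 5-fold above each parental one, and the log2 fold change was 2.69 (SE 0.19), 6.45-fold, with an adjusted p of 4.11e-08 in edgeR's quasi-likelihood test. SCD5, the other stearoyl-CoA desaturase, had 13.6 ± 1.69 CPM (SD, n = 3) in parental and 17.4 ± 0.640 in KR-AA libraries, and its log2 fold change of 0.35 (SE 0.16) did not pass. Per length, SCD exceeded SCD5 by 3.25 to 5.06 times in parental and 20.5 to 23.2 times in KR-AA libraries.

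FASN, the synthase of palmitate, had 1283, 863 and 975 CPM and then 592, 548 and 666 CPM. Its log2 fold change of -0.79 (SE 0.16) passed the adjusted p with TMM but was positive with library totals (0.13). ACLY, which supplies cytosolic acetyl-CoA from citrate, had overlapping groups of 436, 272 and 394 CPM and 299, 289 and 339 CPM. ACACA, which makes malonyl-CoA, rose from 31, 23.7 and 37.3 CPM to 76.3, 72.7 and 84.6 CPM (1.34, SE 0.17). Its isozyme ACACB, known for control of fatty acid oxidation, had 11.6 ± 2.64 CPM in parental and 17.0 ± 2.10 CPM in KR-AA libraries (log2 fold change 0.55, SE 0.20), which did not pass.

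FADS1, the desaturase that makes arachidonate, rose from 21.3, 24.7 and 25.1 CPM to 47.6, 50.7 and 55.4 CPM (log2 fold change 1.11, SE 0.14). FADS2, the desaturase at the entry to polyunsaturated fatty acids, had 31, 28.5 and 22.5 CPM and then 26.3, 22.4 and 29.4 CPM, with overlapping groups. Its log2 fold change was -0.07 (SE 0.17) with TMM, 0.86 with library totals and 0.12 with upper quartile scaling. The ratio of FADS1 to FADS2 per length went from between 0.470 and 0.762 to between 1.24 and 1.55, without overlap. FADS1 and FADS2 are neighbors on opposite strands that share a stretch, and FADS2 also overlaps FEN1, a DNA repair nuclease that had a mean of 2593 and 1794 counts, on its own strand. FADS3 fell from 63.9 ± 1.52 to 25.4 ± 2.85 CPM (log2 fold change -1.33, SE 0.14).

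ELOVL6, which elongates palmitate, had 5.51, 7.50 and 7.77 CPM in parental and 12.1, 13.5 and 9.33 CPM in KR-AA libraries, the lowest level per length of the arm in both groups. Its log2 fold change of 0.75 (SE 0.21) had an adjusted p of 0.00597 in edgeR's quasi-likelihood test, and it no longer passed without parental replicate 1 (0.60), parental replicate 3 (0.81), KR-AA replicate 1 (0.73) or KR-AA replicate 2 (0.64). The other elongases differed among themselves. ELOVL5 and ELOVL7 were called up (log2 fold changes 2.67, SE 0.20, and 1.96, SE 0.27), ELOVL3 was called down (-1.96, SE 0.25), and ELOVL1 fell without reaching 3-fold (-1.13, SE 0.12). ELOVL2 and ELOVL4, elongases of very long chains, had 0 counts in every parental library, where 3 counts were worth 0.185 to 0.218 CPM, and had 2.70 to 3.86 and 5.39 to 6.89 CPM in KR-AA libraries. ELOVL5 exceeded ELOVL6 per length by 1.20 to 1.69 times in parental and 4.97 to 6.15 times in KR-AA libraries. Of the 7 genes of this arm 1 was called up and none down, beside 28.6% and 17.6% of all tested genes. By the adjusted p alone 4 rose, FASN fell and ACLY and FADS2 did not pass. Of all tested genes 41.6% rose and 32.7% fell by that criterion.

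The makeup of each arm also changed, as seen in per-length levels (FPKM from TMM-scaled counts and the deposited gene lengths). In parental cells FDPS held 31.6% of the summed level of the 18 sterol enzymes, FDFT1 18.5% and EBP 14%, while SC5D (0.205%) and HMGCS1 (0.259%) were the lowest. In KR-AA cells FDFT1 came first with 22.5%, followed by FDPS with 18.4% and DHCR7 with 7.19%, and MVK was the lowest with 1.21%. The lowest enzyme was thus less far from the highest in KR-AA cells, on levels with no offsets for length and GC content. With both offsets the log2 fold change was -0.01 for HMGCS1 and 0.25 for SC5D. The log2 change of the ratio of FDPS to FDFT1 was then 0.09. In the fatty acid arm FASN held 49.99% and ACLY 34.5% of the level in parental cells, and SCD 7.92%. SCD came first in KR-AA cells with 42.3%, before ACLY with 24.1% and FASN with 23.8%.

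The summed level of the sterol enzymes was 1781 ± 222 FPKM (SD, n = 3) in parental and 580 ± 15.7 FPKM in KR-AA cells, and no parental library came near a KR-AA one. On the TPM scale, which fixes the sum over all genes in each library, it was 1761 ± 36.3 and 1503 ± 15.9. The log2 ratio was thus -1.62 with one scale and -0.23 with the other. For the fatty acid arm the sums were 246 ± 47.4 and 298 ± 21.9 FPKM, with groups that overlapped, and 248 ± 64.6 and 772 ± 38.9 TPM, with groups that did not. The 6 genes of sterol sensing and transfer summed to 159 ± 15.5 and 189 ± 13.3 FPKM, and to 159 ± 27.0 and 491 ± 46.1 TPM.

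**Figure D3:**
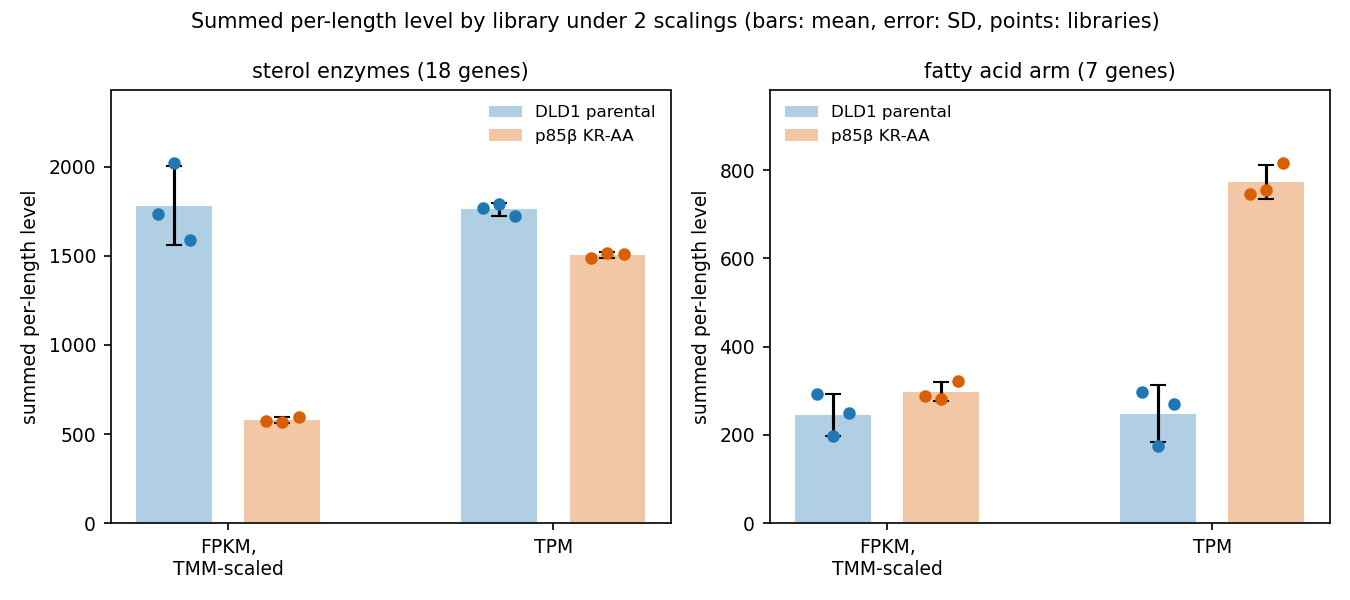
Summed per-length level of the 18 sterol enzymes (left) and of the 7 fatty acid genes (right) in TMM-scaled FPKM and in TPM, with bars for the mean of 3 libraries, error bars for the SD and points for libraries. The sterol sum is lower in KR-AA cells on both scales, by a log2 ratio of -1.62 in FPKM and of -0.23 in TPM, and the fatty acid sum overlaps between groups in FPKM but not in TPM.

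Ratios between genes of a pathway within a library do not depend on the scaling of libraries, but they move with gene length and GC content. Per length, EBP exceeded SC5D 64.2 to 74.9 times in parental libraries and 2.41 to 4.07 times in KR-AA libraries. HMGCS1 was 0.0772 to 0.184 times MVK in parental libraries and 2.34 to 3.55 times MVK in KR-AA libraries. The order of FDPS and FDFT1 was inverted, from 1.57 to 1.93 in parental down to 0.787 to 0.855 in KR-AA libraries. SCD was 0.135 to 0.209 times FASN in parental libraries and 1.70 to 1.89 times FASN in KR-AA libraries. These 4 pairs and that of TM7SF2 and LBR were named after their values were seen, and none had overlapping groups. With length and GC offsets the log2 change of the ratio went from -4.52 to -1.89 for EBP to SC5D, from 4.41 to 1.23 for HMGCS1 to MVK and from 3.48 to 1.72 for SCD to FASN. For FDPS to FDFT1 it went from -1.08 to 0.09, for SREBF2 to SREBF1 from 0.96 to 0.15 and for FADS1 to FADS2 from 1.18 to 0.32.

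**Figure D4:**
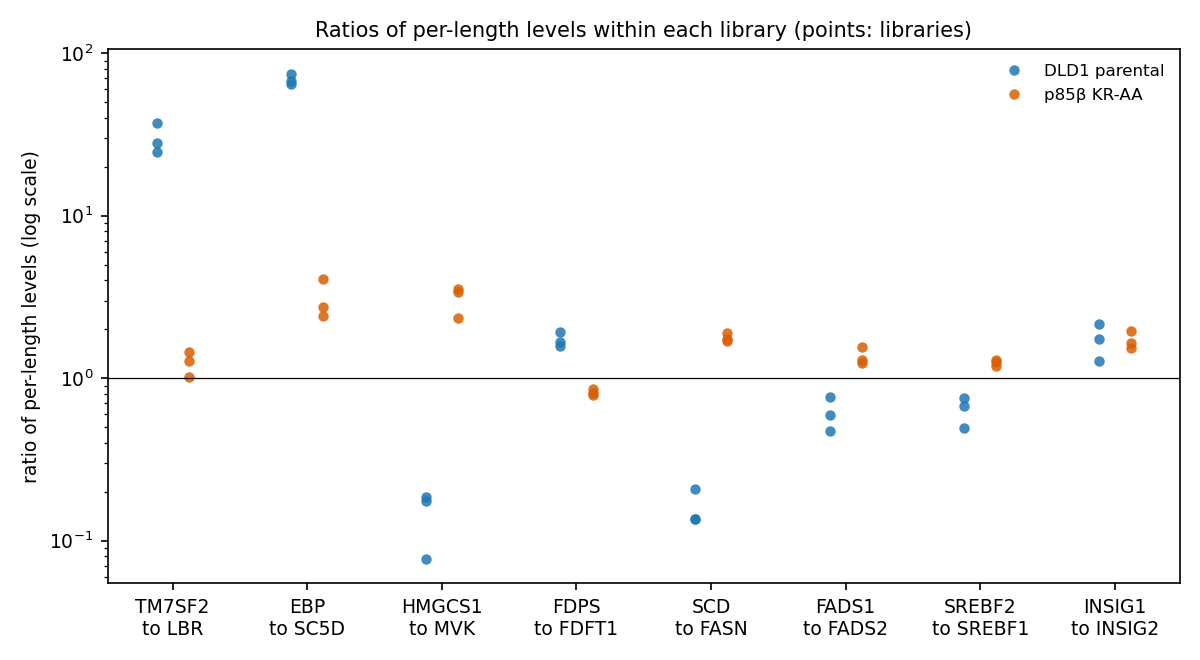
Ratio of per-length levels of 8 pairs of genes within each library on a log axis, blue for the 3 parental and orange for the 3 KR-AA libraries, with a line at 1. With no offsets for length and GC content, the groups are apart for 7 pairs and overlap for INSIG1 to INSIG2, and TM7SF2 to LBR comes close to 1 in KR-AA libraries (1.01 to 1.46).

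The other genes of these pathways were followed in 8 lists of 118 genes, of which 111 were tested, 29 were called up and 18 down. These are 26.1% and 16.2% of the tested genes of the lists, near the 28.6% and 17.6% of all tested genes, so the counts do not set the lists apart. The same shares of all tested genes stand beside the counts of each list below. In the branches of the mevalonate pathway toward prenylation, dolichol and ubiquinone, 2 of 14 tested genes were called up and none down. Those were GGPS1 and PGGT1B, which lie under the level set for named genes and were chosen after their values were seen. Of 9 tested partners of the sterol enzymes, LBR was called up and POR, the reductase that feeds electrons to SQLE and CYP51A1, was called down. POR fell from 440.4 ± 39.5 to 86.7 ± 8.60 CPM (log2 fold change -2.34, SE 0.14), while the SQLE and CYP51A1 values given above rose. With length and GC offsets POR (-1.14) was no longer called, and SQLE had 0.10 and CYP51A1 -0.26.

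Of 14 tested genes of SREBP processing and turnover, 4 were called up and UBE2J2 was called down. MBTPS2, the site-2 protease that frees SREBPs from the Golgi membrane, had 1.33, 0.728 and 2.41 CPM in parental and 27.9, 29.1 and 20.1 CPM in KR-AA libraries (log2 fold change 4.08, SE 0.32). SEC24D, a coat protein of the vesicles that carry SCAP, had 4.17 ± 0.996 and 34.0 ± 2.45 CPM (3.02, SE 0.20). UBE2J2, a ubiquitin-conjugating enzyme of the endoplasmic reticulum, fell from 152 ± 5.43 to 33.3 ± 0.647 CPM (-2.20, SE 0.12). The escort SCAP and the protease MBTPS2 of one route thus had opposite directions.

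In sterol uptake, storage and trafficking, 7 of 15 tested genes were called up and ORMDL3 was called down, beside 28.6% and 17.6% of all tested genes. GRAMD1B, which moves cholesterol from the plasma membrane to the endoplasmic reticulum, had 0.930, 0.583 and 1.23 CPM in parental and 42.9, 41.5 and 47.3 CPM in KR-AA libraries (log2 fold change 5.55, SE 0.24). VLDLR, a lipoprotein receptor, had 3.69 ± 0.871 and 48.4 ± 1.76 CPM (3.70, SE 0.20). ORMDL3, a regulator of sphingolipid synthesis, fell by 2.44 (SE 0.14) on the log2 scale. With length and GC offsets GRAMD1B had a log2 fold change of 5.49, while VLDLR went down to 1.08 and was no longer called. Of the 7 genes of this list called up, 2 (GRAMD1B and LRP1, the latter chosen after its value was seen) were also called up with these offsets. Of the 7 tested genes around the LXR receptors, 2 were called up and 3 down, among them both receptor genes. NR1H3 had 43.4 ± 6.26 and 6.72 ± 0.794 CPM (-2.69, SE 0.18), and NR1H2 had 156 ± 9.18 and 48.1 ± 4.16 CPM (-1.70, SE 0.13).

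Beside the fatty acid arm, 5 of 20 tested genes of synthesis, elongation and desaturation were called up and 4 down. The elongases that were called stand above. A pair of partners in the elongation cycle differed in direction: HACD2, a dehydratase, rose from 7.08 ± 0.774 to 36.3 ± 4.20 CPM (log2 fold change 2.36, SE 0.17), and TECR, the reductase of the last step, fell from 555 ± 90.5 to 69.4 ± 4.91 CPM (-3.00, SE 0.15). With length and GC offsets HACD2 (0.50) and TECR (-1.20) kept their directions but were no longer called. MCAT, of mitochondrial fatty acid synthesis, fell by 2.56 (SE 0.14) on the log2 scale with no offsets. In acyl-CoA and triglyceride synthesis 5 of 15 tested genes were called up and 4 down. The phosphatidate phosphatases LPIN1 (3.77, SE 0.23) and LPIN2 (3.25, SE 0.25) were the highest, and AGPAT2 (-2.65, SE 0.13), which acts just before them, and DGAT2 (-1.98, SE 0.18), which completes the triglyceride, were called down. In fatty acid oxidation 3 of 17 tested genes were called up and 4 down, with ETFB (-2.93, SE 0.16) and ECI1 (-2.75, SE 0.16), both of the mitochondrial matrix, among those down. With length and GC offsets, 11 genes of the 8 lists were called up and 8 down. Of the genes of these lists named here, MBTPS2, GRAMD1B, LRP1, ELOVL2, ELOVL4, LPIN1, LPIN2, ORMDL3 and ETFB were called in the same direction with and without them.

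The direction of a member moved with the GC content of its transcripts. Across the 31 members the Pearson correlation of log2 fold change with GC content was -0.74, across the 18 sterol enzymes it was -0.85, and across 15902 tested genes with a GC content it was -0.50. Genes share libraries and are not independent, so these are descriptions. The 10 members under 45% GC, among them HMGCS1, SQLE, MSMO1, SC5D and STARD4, all had positive log2 fold changes, with a median of 1.40. The 5151 tested genes in that range had a median of 1.70, and 86.1% of them were positive. The 12 members of 55% GC and over, among them MVK, PMVK, MVD, TM7SF2 and EBP, had 11 negative values and a median of -1.29. The 5237 tested genes there had a median of -1.22, and 21.8% of them were positive. Among the 9 members in between, 4 rose (INSIG1, ACACA, SCD and FADS1), 4 fell (ACAT2, FDPS, FDFT1 and NSDHL) and ACLY did not pass.

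**Figure D5:**
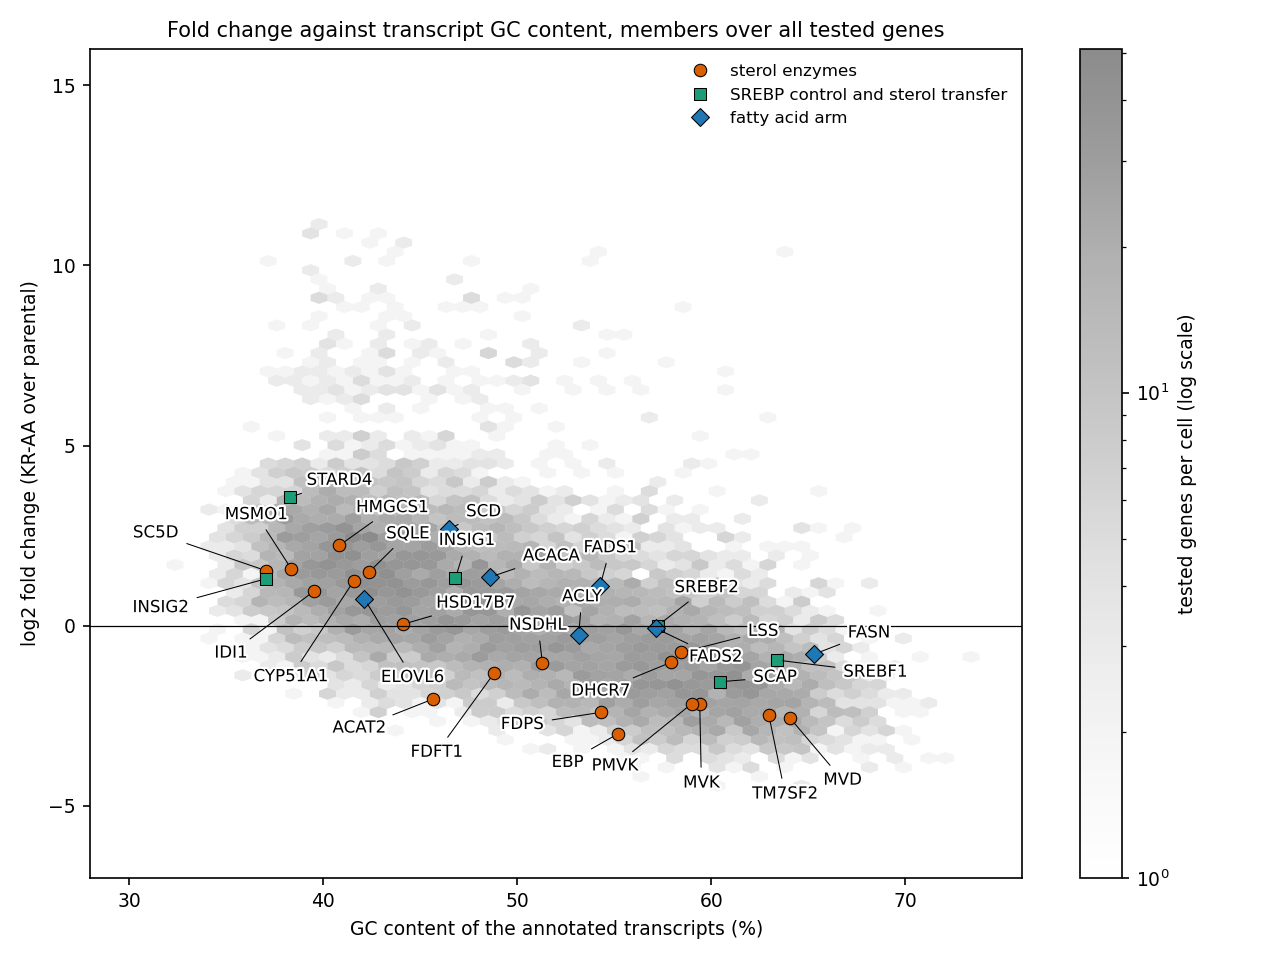
Log2 fold change (KR-AA over parental) against the GC content of annotated transcripts in percent for 15902 tested genes (grey, darker cells hold more genes) and for the 31 members (orange circles, green squares and blue diamonds for the 3 groups of genes). Members and tested genes alike run from positive values at low GC to negative values at high GC, and ACAT2 has -2.04 at 45.6% GC.

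When offsets for gene length and GC content were fitted in each library, the members drew together. The SD of the 31 log2 fold changes went from 1.74 to 1.08, and 23 members lay within 1 of 0, against 9 without offsets. The SD over all tested genes went from 2.45 to 2.08. The offsets are fitted to remove the trend with length and GC content, so members that follow it draw together by construction. STARD4 (3.11) was then the only member called up, and ACAT2 (-3.21), ELOVL6 (-1.67) and EBP (-1.64) were called down, where 13.8% of all genes were called up and 9.91% down (23.7% in all). ELOVL6 had a positive value without offsets. HMGCS1 (-0.01), IDI1 (-0.32) and CYP51A1 (-0.26) changed sign, as did HSD17B7 (-0.31) and ACACA (-0.70). SCD kept 1.01 of its 2.69, and FDPS (-1.40), FDFT1 (-1.49) and MVK (-1.24) remained more than 1 below 0. Of the 10 members called without offsets, STARD4, ACAT2 and EBP were called with them. Offsets for length alone left 4 members called up and 9 called down, where 18.7% of all genes were called up and 18.7% down.

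The spread between libraries of a group was larger in parental than in KR-AA cells. The median coefficient of variation over the sterol enzymes was 17.5% in parental and 8.19% in KR-AA libraries, and over the fatty acid arm 20.9% and 8.52%. HMGCS1 spanned 2.28-fold between its lowest and highest parental library. The wider parental spread was not particular to the members. Over genes of the whole table, the chi-square per degree of freedom, larger where 2 libraries differ more, was 19.3 to 39.1 between parental libraries. It was 4.29 between KR-AA replicates 1 and 2, and 15.3 and 18.7 between these and replicate 3. The source of these differences was not tested. KR-AA replicate 3 was the highest KR-AA library for 20 of 31 members, and replicate 1 was the highest for 2.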

How the data were processed

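RNA was extracted with TRIzol and libraries were made with the Illumina TruSeq RNA kit from 3 samples of DLD1 parental and 3 of p85β KR-AA cells. Per the submitters' processing notes, HISAT2 2.1.0, RSEM 1.3.1 and DESeq2 1.24.0 were used, without the role of each. The deposited table holds estimated counts that the authors did not normalize, by Ensembl gene, and a gene length. Values that were not whole made up 8.78 to 14.0% of all values of a library, zeros included, and counts were rounded before testing. No column went unused.

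The members and lists were chosen with earlier results of these data known. Groups and replicate numbers came from the labels, which do not say that libraries came from separate cultures, so p-values measure only the spread between these libraries. Groups were compared by edgeR's quasi-likelihood F test (edgeR 4.0.16, R 4.3.3) after TMM scaling, p-values being adjusted (Benjamini-Hochberg) over 16059 genes kept by filterByExpr (count at least 10, total at least 15). The fold of 3 and the adjusted p of 0.01 follow the study's methods, which name no test. Standard errors are the log2 fold change over the root of F. The smallest exact permutation p for 3 against 3 libraries is 0.1, so none is given. One count was worth 0.0273 to 0.0728 CPM. Scripts were tested on simulated counts.

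Symbols, positions and GC content came from GENCODE 44 on GRCh37, which matched 56745 of 58884 genes, and GC content was found for 15902 of 16059 tested genes. The submitters' notes name another build, so positions are those of the annotation. Offsets for length and GC content were robust splines with 5 degrees of freedom (MASS 7.3.60.0.1). FPKM and TPM were computed from the deposited lengths. Named genes were the 31 members, from each list at most 2 genes called up and 2 called down with the largest change and an average log2 CPM of at least 3, isozymes of members, and genes that overlap a member. Alternatives were DESeq2 1.42.0, library totals, upper quartile scaling, other filters and thresholds, a replicate block, the offsets and leaving out each library.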

Additional observations from a re-analysis of the deposited data

How the results depend on the processing

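Scaling by library totals called 7052 genes up and 973 down. It called 6 sterol enzymes up and 2 down, 3 genes of sterol sensing and transfer up, 4 of the fatty acid arm up, and 48 and 7 genes of the 8 lists. LSS (0.17), ACLY (0.66), FASN (0.13) and FADS2 (0.86) then had the opposite sign. NSDHL (-0.11), DHCR7 (-0.09) and SREBF1 (-0.03) no longer passed the adjusted p. HSD17B7 (0.96) and SREBF2 (0.92) passed it with library totals only by this change of scaling from TMM. Upper quartile scaling called 4 sterol enzymes up, where 5059 of 16059 genes were called up against 4597 with TMM, and gave FADS2 0.12. DESeq2 called 1 gene of sterol sensing down, where 3094 of all genes were called down against 2825 with edgeR. It gave HSD17B7 -0.076 and SREBF2 -0.11.

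Without a filter 2 sterol enzymes were called up, beside 5225 of 28759 genes. With at least 10 counts in every library, 2898 of 12693 genes and 4 sterol enzymes were called up, and FADS2 was 0.12. Testing the fold against 3 called 2974 genes up and 1779 down. With a fold of 2 and an adjusted p of 0.05, 6074 genes were called up and 4289 down. That setting called 5 sterol enzymes up and 3 and 1 genes of sterol sensing up and down. It called 3 genes of the fatty acid arm up and 31 of the 8 lists down. With the adjusted p alone, 6680 genes rose and 5246 fell. By that criterion 6 and 11 sterol enzymes, 3 and 2 genes of sterol sensing and 4 and 1 of the fatty acid arm rose and fell. Of the 8 lists, 47 genes rose and 39 fell.

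Length offsets called 2997 genes up and 2998 down. They called 2 sterol enzymes up, 2 and 2 genes of sterol sensing up and down, 0 and 1 of the fatty acid arm, and 17 of the 8 lists up. SREBF2 (-1.32), ACACA (-0.87) and ELOVL6 (-0.94) then changed sign. Offsets for length and GC content called 2190 and 1576 genes up and down, 0 and 2 sterol enzymes, 0 and 1 of the fatty acid arm and 11 and 8 of the 8 lists. HMGCS1 (-0.012), IDI1 (-0.32), LSS (0.058), CYP51A1 (-0.26), HSD17B7 (-0.31), SREBF2 (-0.034), ACACA (-0.70), ELOVL6 (-1.67) and FADS2 (0.54) changed sign. The causes were not tested beyond what each correction removes.

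Leaving out 1 library at a time gave 4404 to 4783 genes up and 2774 to 2992 down. Sterol enzymes called up were 1 to 3 and those called down 7 to 7, genes of sterol sensing called down were 0 to 1, and genes of the lists were 27 to 31 up and 17 to 19 down. Log2 fold changes of HSD17B7 ran from -0.088 (without parental replicate 1) to 0.079, those of SREBF2 from -0.22 (without parental replicate 2) to 0.15, and those of FADS2 from -0.24 to 0.033 (without KR-AA replicate 2), so each took both signs. The log2 ratio of the summed sterol level was -1.70 to -1.52, and that of the fatty acid arm 0.14 to 0.42. On the TPM scale the ratios were -0.23 and 1.64, and the median log2 level of the sterol enzymes differed by -0.62.

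Replicate numbers did not pair the libraries: the deviations of same-numbered libraries correlated at -0.14, 0.12 and -0.04. With the replicate block 4626 genes were called up and 2827 down (4618 and 2823 with robust moderation), and all 31 members kept direction and side of the threshold. The prior degrees of freedom were infinite in that fit, so its p-values for single genes are not given.

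With 3 libraries a group, no separate cultures named, no clone named and one line, differences between cells, clones and preparations cannot be told apart. The count of members above the median gene, chosen after seeing the data, was 13 under the other scalings, the block and each left-out library, 12 without a filter and with either offset, and 16 with at least 10 counts in every library. In parental libraries 3 counts were worth 0.185 to 0.218 CPM, the limit for a gene at 0.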
